A study of Arabidopsis thaliana with 6 samples.

Results

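Glucosinolate genes of Arabidopsis thaliana were followed as a set of 41 loci that cover synthesis, transport and hydrolysis of these compounds. The loci were chosen by identifier, with no expression value in the rule, out of 26800 gene identifiers in the deposited table. Earlier results of these data were known when the loci were chosen. Of the 41, 39 had a row and 38 had enough counts to be tested. AOP3 had 4 counts in 1 library and 0 in the other libraries, so it was not tested. GSTF11 and AOP2 had no row, so only their promoter and transcript sequences were examined.

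The counts came from 6 RNA-seq libraries made from whole seedlings, with root and shoot together, 12 days old. Of these, 3 are labelled vih1vih2, a mutant of both VIH1 and VIH2, whose products are kinases that make the inositol pyrophosphate InsP8, and the other 3 carry the wild type label and come from the accession Col-0. Total counts were 42697387 to 64410871 a library. All seedlings were grown at one temperature on the same agar medium with sucrose and no further treatment. The study presents InsP8 as a signal of phosphate status, and the comparison asks which transcripts differ in the mutant. The insertion sites, and how many plants went into a library, were not used here. The labels do not say that libraries came from separate cultures, so p-values reflect only how far these libraries spread, and that spread may be technical.

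Both targeted genes had higher counts in the libraries labelled vih1vih2 than in those labelled wild type. VIH1 had 1737, 1524 and 1820 counts in the libraries labelled vih1vih2, against 325, 361 and 246 in the libraries labelled wild type, a log2 fold change of 2.31 ± 0.16 (SE). VIH2 had 33783, 35310 and 38660 counts in the libraries labelled vih1vih2, against 2759, 2783 and 2310 in those labelled wild type, a log2 fold change of 3.64 ± 0.14. A gene-level count does not show whether a transcript is intact, so these counts cannot settle whether the labels are right. Every direction below is therefore that of the libraries as labelled.

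Glucosinolates are sulfur-rich defence compounds of Arabidopsis and its relatives. Aliphatic ones start from methionine, whose side chain is first lengthened, and indole ones start from tryptophan. Both then pass through a common core that turns an amino acid into an oxime, adds sulfur from glutathione, a glucose and a sulfate. Side-chain enzymes vary the product, GTR transporters import it into cells, and myrosinases, which are thioglucosidases, split it when tissue is damaged.

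Promoter letters were examined because the study concerns phosphate signalling. The P1BS motif GNATATNC is the site of the phosphate regulator PHR1, and the G-box CACGTG is bound by bHLH factors such as the MYC proteins that partner the glucosinolate MYBs. Both motifs read the same on either strand. In the window of 250 bases before to 50 bases after the annotated start, P1BS was found in 1 of 40 promoters of these genes (2.5%), against 6.25% of 27443 promoters of protein-coding genes, and the promoter that held it held no G-box. The G-box was found in 5 of 40 (12.5%), against 7.68% of all promoters, and before the start alone in 2 of 40 (5.0%), against 6.49%. The stretches below show the 100 bases before the start of the genes that held a motif there, read from RefSeq TAIR10.1, 5′ to 3′ on the strand of the gene, with the motif in capitals.
IPMI SSU3, P1BS at −50, chr3:21798304-21798403, minus strand: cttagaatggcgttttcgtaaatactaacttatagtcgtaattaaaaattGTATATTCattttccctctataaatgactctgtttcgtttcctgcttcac
CYP83A1, G-box at −43, chr4:7992430-7992529, minus strand: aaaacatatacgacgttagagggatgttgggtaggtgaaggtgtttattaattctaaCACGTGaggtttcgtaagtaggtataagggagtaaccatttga
SUR1, G-box at −50, chr2:8880441-8880540, minus strand: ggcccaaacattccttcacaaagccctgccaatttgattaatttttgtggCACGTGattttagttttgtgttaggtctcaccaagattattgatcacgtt
A match is a string of letters and not a shown binding site. AOP2, annotated as a pseudogene and so outside the 40, held P1BS at −71. The other G-boxes lay after the start, at +17 in MYB122, +6 in BAT5 and +30 in FMOGSX3.

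Counting can split reads between near-identical genes, so the neighbours CYP79F1 and CYP79F2 were compared base by base. Their spliced transcripts shared 54 stretches of 50 bases, which is 1.67% of those in CYP79F1 and 2.74% of those in CYP79F2. The longest identical run was 100 bases of coding exon, at chr1:5609966-5610065 in CYP79F1 and chr1:5606398-5606497 in CYP79F2, both on the plus strand.
CYP79F1 and CYP79F2, shared run: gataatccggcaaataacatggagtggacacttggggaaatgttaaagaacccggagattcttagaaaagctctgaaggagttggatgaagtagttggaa
Reads inside that run fit both genes. Among the other genes with a row, FMOGSX5 had the largest share of 50-base stretches found in another gene, 23.0%, mainly in AT1G12150. GSTF11, which had no row, shared 89.3% with AT3G03200. BCAT4 shared 18.4% with the neighbouring AT3G19700, UGT74C1 13.6% with AT2G08470, and GTR1 12.9%, mainly with AT3G07835. Stretches were matched on either strand, so transcripts that overlap at one locus, also on opposite strands, count as shared. Whether a share came from such overlap or from alike sequence was not tested. SOT18 and FMOGSX5 had the same 6 counts as a row that overlaps them, AT1G74088 and AT1G04933, so their counts cannot be assigned to the gene alone.

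Glucosinolate genes were more often higher than lower under the label vih1vih2. Of the 38 tested, 16 rose, 3 fell and 19 were not called, under the quasi-likelihood test of edgeR, at 0.05 after Benjamini-Hochberg adjustment over all 22818 genes tested. The called share was 50% of these genes, against a background of 40.9% of all genes tested, so that share is not far from the background. The share that rose was 42.1%, against 21.4% of all genes, and the share that fell was 7.89%, against 19.4%. Their median log2 fold change was 0.58, against 0.00 for all genes tested. A change of at least 2-fold upward was called in 11 of the 38, where 11.3% of all genes tested had such a call. A downward one was called in 1 of the 38, where 7.43% of all genes tested had it. The groups did not overlap in 23 of the 38 genes, 17 above and 6 below, a share not far from the background of 56.4% of all genes. Earlier results of these data were known when the set was chosen, so these shares are a description.

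**Figure D1:**
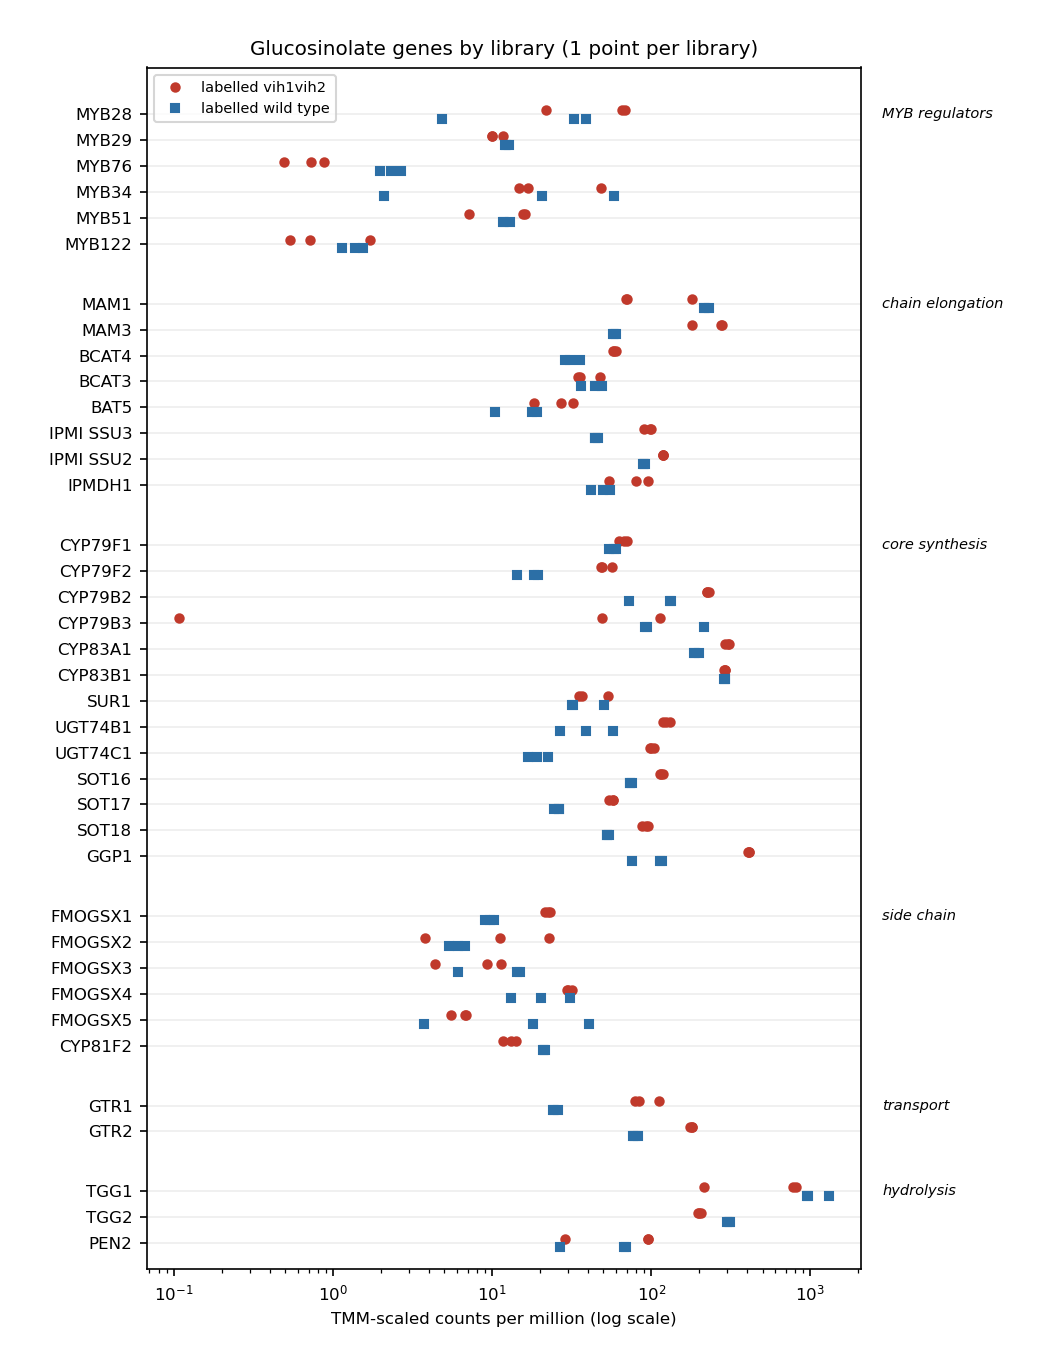
Expression of the 38 tested glucosinolate genes, grouped by role down the page, in TMM-scaled CPM (a count as a share of its library, scaled to a common depth) on a log axis, 1 point for each library (red circles, labelled vih1vih2; blue squares, labelled wild type). Most core genes show tight, separate clusters, while CYP79B3 has 1 library at 0.108 CPM and MYB34 spans 2.1 to 57.9 CPM among the libraries labelled wild type.

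Whole seedlings were sampled, so fewer cells of a type and less RNA per cell cannot be told apart in any value here. Levels below are in CPM, the count of a gene as a share of its library, scaled by TMM to a common depth, log2 fold changes give vih1vih2 over wild type, as labelled, ± the standard error, and "rose" and "fell" are used of called genes alone. By role, the core synthesis genes held 9 of the 19 calls, with 9 of 13 tested that rose and none that fell, and a median log2 fold change of 0.79. Chain elongation had 4 of 8 that rose, none that fell and a median of 0.68. Both transporters rose. The MYB regulators had 0 of 6 that rose and 1 that fell, with a median of −0.12, and the hydrolysis genes had 0 of 3 that rose and 1 that fell, with a median of −0.61. Side-chain genes were split, with 1 of 6 that rose (16.7%), 1 that fell (16.7%) and a median of 0.00. Among all genes tested, 21.4% rose and 19.4% fell. The side-chain shares and the share of MYB regulators that fell (16.7%) were thus near those of all genes. The shares that rose were 69.2% in core synthesis and 50% in chain elongation.

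**Figure D2:**
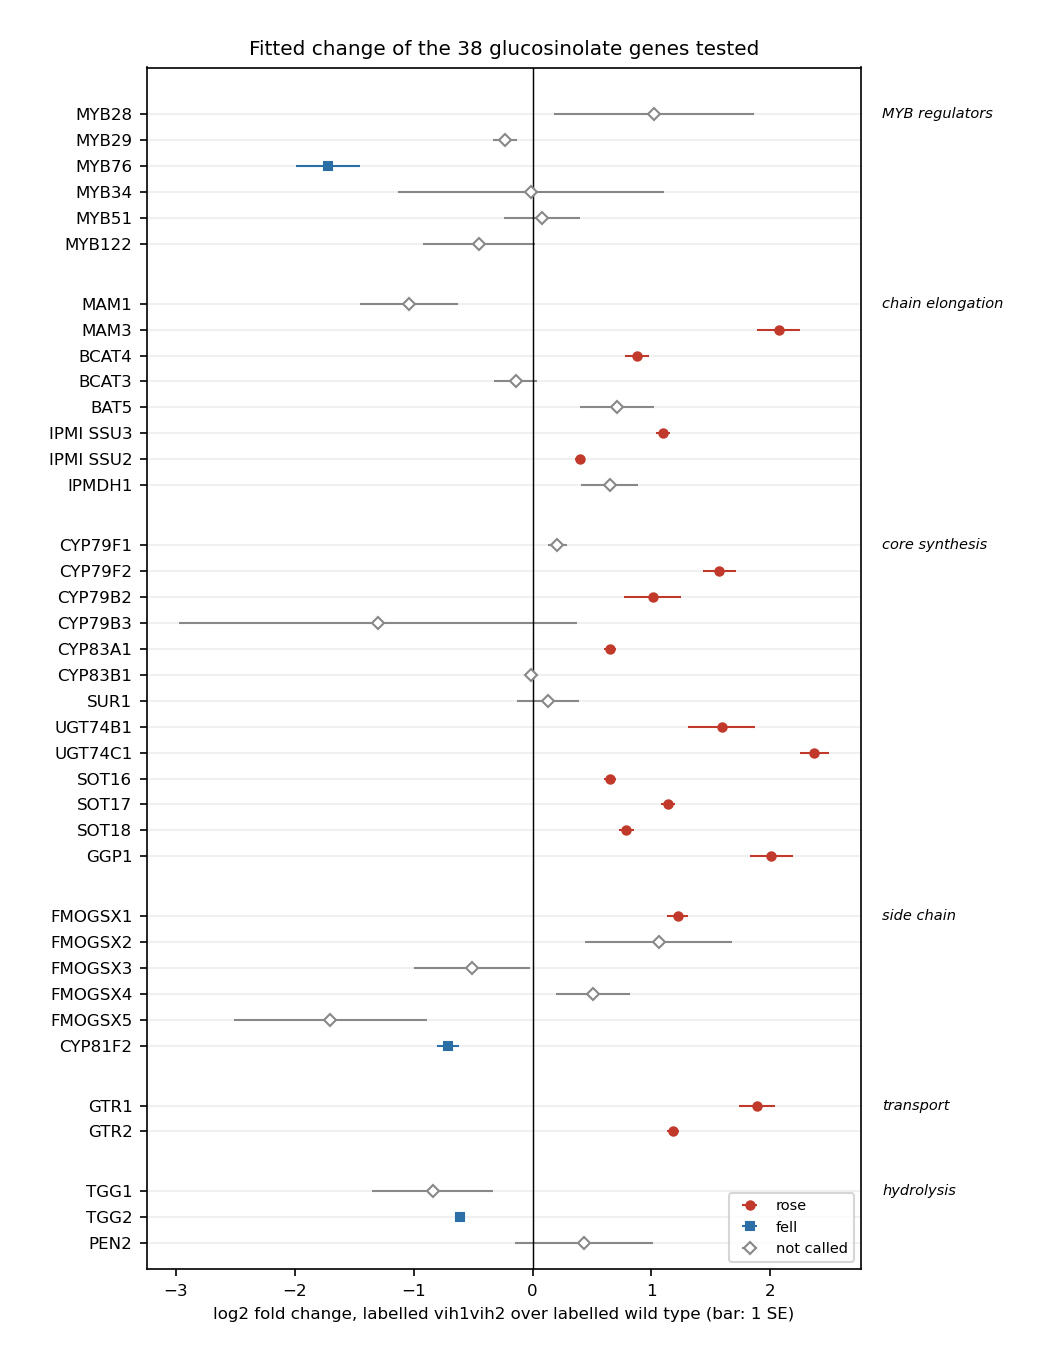
Fitted log2 fold change (labelled vih1vih2 over labelled wild type) of the 38 tested genes by role, with bars of 1 standard error. Red circles rose, blue squares fell and open diamonds were not called by edgeR at an adjusted p under 0.05. UGT74C1 lies highest at 2.37 and MYB76 lowest at −1.72.

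The MYB regulators activate the pathway genes, MYB28, MYB29 and MYB76 those of the aliphatic branch and MYB34, MYB51 and MYB122 those of the indole branch. MYB76 fell, with 0.881, 0.729 and 0.487 CPM in the libraries labelled vih1vih2, against 2.32, 2.65 and 1.96 CPM in those labelled wild type. That was a log2 fold change of −1.72 ± 0.27 (edgeR adjusted p = 0.00496), at 26 to 140 counts a library. MYB76 was among the least expressed genes of the set, and its groups did not overlap.

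MYB29 was not called, at 11.7, 9.99 and 9.97 CPM in the libraries labelled vih1vih2 and 12.8, 12.1 and 12.2 CPM in those labelled wild type. All 3 values labelled vih1vih2 lay below the others, but the log2 fold change of −0.23 ± 0.10 missed the threshold (edgeR adjusted p = 0.124). MYB28 had 68.3, 21.8 and 65.7 CPM in the libraries labelled vih1vih2, against 39.1, 4.80 and 32.6 CPM in those labelled wild type. Each group of MYB28 held 1 library far below the other pair, the groups overlapped, and the log2 fold change of 1.02 ± 0.84 was not called (edgeR adjusted p = 0.386).

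Of the indole regulators, MYB34 had 48.4, 14.7 and 16.8 CPM in the libraries labelled vih1vih2 and 2.1, 57.9 and 20.6 CPM in those labelled wild type. The spread inside the wild-type-labelled group was 27.5-fold, and the fitted log2 fold change of −0.01 ± 1.12 says little about a difference in either direction. MYB51 (log2 fold change 0.08 ± 0.32) and MYB122 (−0.45 ± 0.47) were not called either. Their calls hung on single libraries: without vih1vih2 replicate 3, MYB51 was called at 0.38 (edgeR adjusted p = 0.0466), and without vih1vih2 replicate 1, MYB122 was called at −1.11 (edgeR adjusted p = 0.0388).

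Chain elongation turns methionine into longer homologues before the core pathway. MAM3 (AT5G23020, chromosome 5, 7718118 to 7721866), a methylthioalkylmalate synthase that makes the whole range of chain lengths up to the long ones, rose to 181, 276 and 280 CPM in the libraries labelled vih1vih2, against 57.6, 59.7 and 58.4 CPM in those labelled wild type. The log2 fold change was 2.07 ± 0.18 (edgeR adjusted p = 0.000641). MAM1 (AT5G23010, chromosome 5, 7703041 to 7706973), the neighbouring synthase for short chains, had 70.8, 69.4 and 181 CPM in the libraries labelled vih1vih2, against 213, 217 and 232 CPM in those labelled wild type.

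All 3 values of MAM1 labelled vih1vih2 lay below the lowest value labelled wild type, yet replicate 3 stood well above its group. The log2 fold change of −1.04 ± 0.41 was not called (edgeR adjusted p = 0.0984). Without vih1vih2 replicate 3 it was called at −1.65 (edgeR adjusted p = 0.000384). The DESeq2 Wald test on all 6 libraries called it too, at −1.04 (adjusted p = 0.0414), and so did limma-voom, at −1.19 (adjusted p = 0.0442).

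Setting the neighbours side by side within each library, the counts of MAM3 over those of MAM1 were 2.55, 3.98 and 1.54 in the libraries labelled vih1vih2, against 0.270, 0.275 and 0.252 in those labelled wild type. MAM3 thus had more counts than MAM1 in every library labelled vih1vih2 and fewer in every library labelled wild type. The transcripts of MAM1 and MAM3 shared no stretch of 50 bases, so their counts can be told apart at that length.

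Other genes of chain elongation rose by less. IPMI SSU3 (AT3G58990), a small subunit of the isopropylmalate isomerase, had 98.5, 90.5 and 100 CPM in the libraries labelled vih1vih2 and 44.3, 45.9 and 44.4 CPM in those labelled wild type, a log2 fold change of 1.10 ± 0.06 (edgeR adjusted p = 0.000137). IPMI SSU2, another small subunit of that enzyme, had 119, 118 and 118 CPM in the libraries labelled vih1vih2 and 91.4, 88.6 and 89.3 CPM in those labelled wild type, a log2 fold change of 0.40 ± 0.04 (edgeR adjusted p = 0.0015). In both subunits the groups were tight and apart. BCAT4, the aminotransferase that opens the chain elongation of methionine, averaged 58.6 ± 1.48 CPM in the libraries labelled vih1vih2 and 31.9 ± 3.55 CPM in those labelled wild type (SD, n = 3 each), a log2 fold change of 0.88 ± 0.10.

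Not called in this role were BCAT3, which closes chain elongation (−0.14 ± 0.18), the plastid carrier BAT5 (0.71 ± 0.31) and the dehydrogenase IPMDH1 (0.65 ± 0.24). The groups overlapped in each of the 3. IPMDH1 had 80.2, 53.8 and 95.9 CPM in the libraries labelled vih1vih2 and 49.5, 55.1 and 41.6 CPM in those labelled wild type. It was called without vih1vih2 replicate 2, at 0.85 (edgeR adjusted p = 0.0173), and by the DESeq2 Wald test, at 0.66 (adjusted p = 0.0363).

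The core pathway begins with CYP79 enzymes, which turn amino acids into oximes. CYP79F2 (AT1G16400, chromosome 1, 5605044 to 5607498), which acts on long-chain methionine derivatives, had 48.9, 48.0 and 56.6 CPM in the libraries labelled vih1vih2, against 14.2, 19.4 and 18.2 CPM in those labelled wild type. It rose by a log2 fold change of 1.57 ± 0.14 (edgeR adjusted p = 0.000727). Its neighbour CYP79F1 (AT1G16410, chromosome 1, 5608682 to 5612064), which accepts short and long chains, had 67.0, 62.2 and 70.3 CPM in the libraries labelled vih1vih2, against 58.6, 59.8 and 53.9 CPM in those labelled wild type.

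For CYP79F1 the groups were also apart, but its log2 fold change of 0.21 ± 0.08 was not called by edgeR (adjusted p = 0.0743), while the DESeq2 Wald test called it at 0.22 (adjusted p = 0.0372). Within each library, counts of CYP79F2 over those of CYP79F1 were 0.729, 0.772 and 0.805 in the libraries labelled vih1vih2, against 0.243, 0.324 and 0.338 in those labelled wild type. The ratio was higher in all 3 libraries labelled vih1vih2, and CYP79F1 had more counts than CYP79F2 in all 6. CYP79F2 thus had the higher fitted log2 fold change of these neighbours, as MAM3 had beside MAM1. Neither CYP79F1 nor MAM1 was called by edgeR on all libraries, and a link to chain length was not tested.

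**Figure D3:**
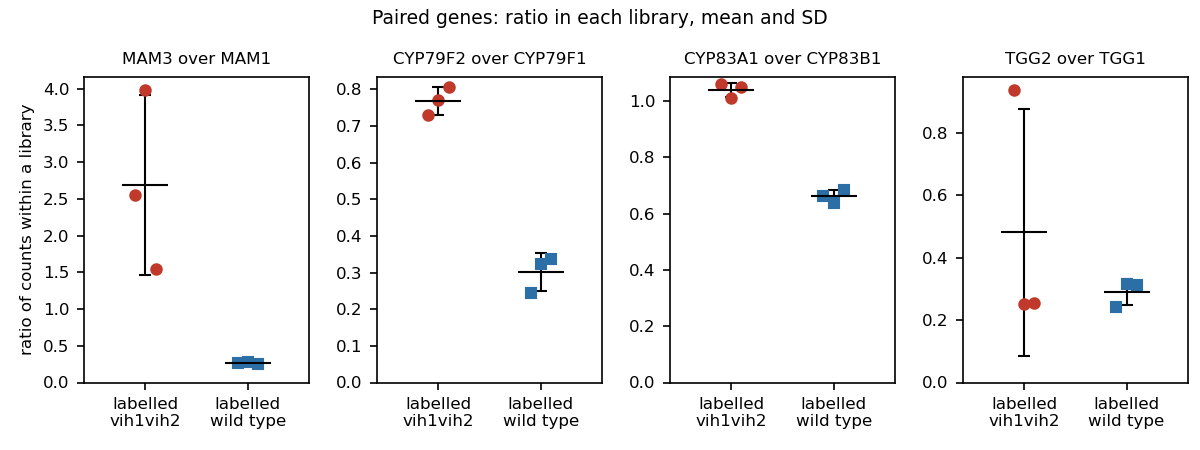
Ratio of the counts of related genes inside each library, for MAM3 over MAM1, CYP79F2 over CYP79F1, CYP83A1 over CYP83B1 and TGG2 over TGG1, with libraries labelled vih1vih2 on the left and those labelled wild type on the right of each panel. Points are libraries, and bars show the mean and SD of 3 libraries. The first 3 ratios do not overlap between the groups, and TGG2 over TGG1 does, with 1 library labelled vih1vih2 at 0.939.

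The indole CYP79 genes were less even. CYP79B2, which turns tryptophan into its oxime, had 223, 229 and 223 CPM in the libraries labelled vih1vih2, against 72.3, 131 and 133 CPM in those labelled wild type. It rose, with a log2 fold change of 1.01 ± 0.24 (edgeR adjusted p = 0.0228) and groups apart. That call was lost without vih1vih2 replicate 1 (1.01, edgeR adjusted p = 0.0602), replicate 2 (0.99, edgeR adjusted p = 0.0632) or replicate 3 (1.01, edgeR adjusted p = 0.0605).

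CYP79B3, which carries out the same step, had 6, 5786 and 2595 counts in the libraries labelled vih1vih2 and 5540, 9961 and 3818 in those labelled wild type. The 6 counts of vih1vih2 replicate 1 stood far below every other library, and of the others replicate 2 lay within the range labelled wild type, and replicate 3 lay below it. The fitted log2 fold change of −1.30 ± 1.67 was not called (edgeR adjusted p = 0.588), and it was −0.71 without vih1vih2 replicate 1. The transcripts of CYP79B2 and CYP79B3 shared no stretch of 50 bases.

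CYP83 enzymes oxidise the oximes. CYP83A1 (AT4G13770, chromosome 4, 7990429 to 7992429), which prefers aliphatic oximes, had 309, 289 and 304 CPM in the libraries labelled vih1vih2, against 189, 186 and 200 CPM in those labelled wild type, a log2 fold change of 0.65 ± 0.05 (edgeR adjusted p = 0.000378). CYP83B1 (AT4G31500, chromosome 4, 15273410 to 15275404), which prefers indole oximes, had 291, 285 and 289 CPM in the libraries labelled vih1vih2, against 286, 292 and 292 CPM in those labelled wild type. Its log2 fold change of −0.01 ± 0.03 had the smallest standard error of the set. Within each library, CYP83A1 over CYP83B1 was 1.06, 1.01 and 1.05 in the libraries labelled vih1vih2, against 0.663, 0.639 and 0.685 in those labelled wild type. The aliphatic gene thus had more counts than the indole one in all 3 libraries labelled vih1vih2 and fewer in all 3 labelled wild type.

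Steps that serve both branches rose in part. GGP1 (AT4G30530), a gamma-glutamyl peptidase that processes the glutathione conjugate, had 407, 412 and 412 CPM in the libraries labelled vih1vih2, against 116, 113 and 76.0 CPM in those labelled wild type. Its log2 fold change was 2.01 ± 0.18 (edgeR adjusted p = 0.000589). SUR1, the C-S lyase that follows, had 36.6, 53.5 and 34.9 CPM in the libraries labelled vih1vih2 and 31.8, 50.5 and 32.4 CPM in those labelled wild type. Replicate 2 was the highest of each group for SUR1, the groups overlapped, and the log2 fold change of 0.13 ± 0.26 was not called.

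UDP-glucosyltransferases then add glucose. UGT74C1 (AT2G31790, chromosome 2, 13518199 to 13520364), linked to aliphatic glucosinolates, had 104, 99 and 98.7 CPM in the libraries labelled vih1vih2, against 19.0, 22.5 and 16.7 CPM in those labelled wild type. This was the largest fitted change among the 38 genes, a log2 fold change of 2.37 ± 0.12 (edgeR adjusted p = 0.000106). UGT74B1, which accepts both kinds, had 131, 118 and 123 CPM in the libraries labelled vih1vih2, against 57.8, 26.8 and 39.1 CPM in those labelled wild type. It also rose (log2 fold change 1.59 ± 0.28), and its groups were apart although the values labelled wild type spanned 2.15-fold. UGT74C1 over UGT74B1 within a library was 0.791, 0.835 and 0.799 in the libraries labelled vih1vih2 and 0.329, 0.838 and 0.426 in those labelled wild type, which overlap.

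Sulfotransferases finish the core. SOT17, which prefers aliphatic substrates, had 57.5, 54.4 and 57.8 CPM in the libraries labelled vih1vih2 and 24.6, 26.1 and 26.4 CPM in those labelled wild type, a log2 fold change of 1.14 ± 0.06 (edgeR adjusted p = 0.000122). SOT18, also aliphatic, rose by 0.79 ± 0.06 on counts that equal those of an overlapping row, and SOT16, which prefers indole substrates, rose by 0.65 ± 0.05 (edgeR adjusted p = 0.000365). All 3 sulfotransferases had groups that were apart, with at most a 1.08-fold range inside a group. SOT17 over SOT18 within a library was 0.607, 0.621 and 0.621 in the libraries labelled vih1vih2, against 0.470, 0.497 and 0.484 in those labelled wild type.

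Side-chain genes of the set comprise FMOGSX flavin monooxygenases, which oxidise the sulfur of aliphatic side chains, the AOP dioxygenases and CYP81F2. FMOGSX1 rose, with 22.9, 21.6 and 22.3 CPM in the libraries labelled vih1vih2 and 10.2, 9.62 and 8.94 CPM in those labelled wild type, a log2 fold change of 1.22 ± 0.09 (edgeR adjusted p = 0.00029). FMOGSX2, FMOGSX3, FMOGSX4 and FMOGSX5 were not called, and each had a group whose highest library was at least 2-fold above its lowest. FMOGSX5 showed it most, at 6.85, 5.53 and 6.75 CPM in the libraries labelled vih1vih2 and 3.72, 40.6 and 18.0 CPM in those labelled wild type.

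Single libraries decided 3 of these genes. FMOGSX2 was at 1.06 ± 0.62 and was called without vih1vih2 replicate 3, at 1.49 (edgeR adjusted p = 0.0308). FMOGSX4 was at 0.51 ± 0.31 and was called without wild type replicate 3, at 0.86 (edgeR adjusted p = 0.0354), and FMOGSX5 was at −1.70 ± 0.81 and was called without wild type replicate 1, at −2.20 (edgeR adjusted p = 0.0143). FMOGSX3 was at −0.51 ± 0.49. CYP81F2, which hydroxylates the ring of indole glucosinolates, fell to 13.1, 11.7 and 14.1 CPM in the libraries labelled vih1vih2, against 21.6, 20.9 and 21.2 CPM in those labelled wild type. Its groups were apart, with a log2 fold change of −0.71 ± 0.09 (edgeR adjusted p = 0.0028).

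Both transporters that load glucosinolates into cells rose. GTR1 (AT3G47960) had 83.2, 112 and 79.3 CPM in the libraries labelled vih1vih2, against 24.1, 24.3 and 26.0 CPM in those labelled wild type, a log2 fold change of 1.89 ± 0.15 (edgeR adjusted p = 0.000456). GTR2 (AT5G62680) had 176, 180 and 180 CPM in the libraries labelled vih1vih2, against 82, 78.9 and 76.8 CPM in those labelled wild type, a log2 fold change of 1.18 ± 0.05 (edgeR adjusted p = 4.58e-05). The groups of both were well apart.

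Of the hydrolysis genes, 1 of 3 fell and the others were not called. TGG2 (AT5G25980), a myrosinase of shoots, fell to 200, 196 and 206 CPM in the libraries labelled vih1vih2, against 313, 307 and 298 CPM in those labelled wild type, a log2 fold change of −0.61 ± 0.04 (edgeR adjusted p = 0.000255). TGG1 (AT5G26000), the related myrosinase, had 213, 781 and 806 CPM in the libraries labelled vih1vih2, against 1300, 967 and 954 CPM in those labelled wild type. All 3 libraries labelled vih1vih2 were below the lowest labelled wild type, replicate 1 by the widest margin.

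With that spread, TGG1 was not called (log2 fold change −0.84 ± 0.51, edgeR adjusted p = 0.253), and without vih1vih2 replicate 1 it was −0.44 and still not called. TGG2 over TGG1 within a library was 0.939, 0.251 and 0.255 in the libraries labelled vih1vih2 and 0.241, 0.317 and 0.313 in those labelled wild type, which overlap. PEN2, an atypical myrosinase that acts on indole glucosinolates in intact cells, had 28.8, 95.1 and 95.9 CPM in the libraries labelled vih1vih2 and 67.5, 69.3 and 26.7 CPM in those labelled wild type. Each group of PEN2 again held 1 library far below the other pair, and its log2 fold change of 0.43 ± 0.58 was not called.

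Sorted by branch, 10 of 22 tested aliphatic genes rose (45.5%) and 1 fell (4.55%), and their median log2 fold change was 0.68. Of 9 tested indole genes, 2 rose (22.2%) and 1 fell (11.1%), with a median of −0.01, where 21.4% of all genes tested rose and 19.4% fell. Of 7 genes shared by the branches, 4 rose (57.1%) and 1 fell (14.3%), with a median of 1.18. Both branch lists also hold MYB regulators, and the indole list holds PEN2. Among the enzymes of chain elongation, core and side chain alone, 10 of 19 tested aliphatic genes rose (52.6%) and 0 fell, with a median of 0.71. Of 5 tested indole enzymes, 2 rose (40%) and 1 fell (20%), with a median of −0.01. Summed over the aliphatic genes, the level was 1490 to 1720 CPM in the libraries labelled vih1vih2, against 1010 to 1040 CPM in those labelled wild type. Summed over the indole genes it was 737 to 881 CPM in the libraries labelled vih1vih2 and 627 to 874 CPM in those labelled wild type. The aliphatic sums were apart and the indole sums overlapped, and whether the branches differ was not tested.

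To compare levels between genes, CPM was divided by exonic length in kilobases. On that scale GGP1 was the highest of the 38 in the libraries labelled vih1vih2, at a mean of 338 CPM per kilobase, and the sixth highest in those labelled wild type, at 83.8. TGG1 had 317 CPM per kilobase in the libraries labelled vih1vih2 and 567 in those labelled wild type, where it was the highest. MAM3 had 134 CPM per kilobase and MAM1 52.2 in the libraries labelled vih1vih2, against 32.0 for MAM3 and 108 for MAM1 in those labelled wild type. The order of these synthases was thus opposite between the groups, while the MYB regulators ranged from 0.455 (MYB76) to 26.2 (MYB28) CPM per kilobase in the libraries labelled vih1vih2, and from 0.864 (MYB122) to 15.1 (MYB34) in those labelled wild type.

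Inside groups, the glucosinolate genes were often uneven. A gene was called uneven where the highest library of a group was at least 2-fold above the lowest. Among the tested genes of at least 5 CPM, 12 of 36 glucosinolate genes were uneven (33.3%), against 21.9% of 16599 genes of that level. Over all 38, 13 were uneven, of which 1 rose (UGT74B1), 0 fell and 12 were not called. Of the other 25, 15 rose, 3 fell and 7 were not called. A wide spread raises the standard error, so this split follows in part from the test itself. The source of the uneven counts was not tested.

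**Figure D4:**
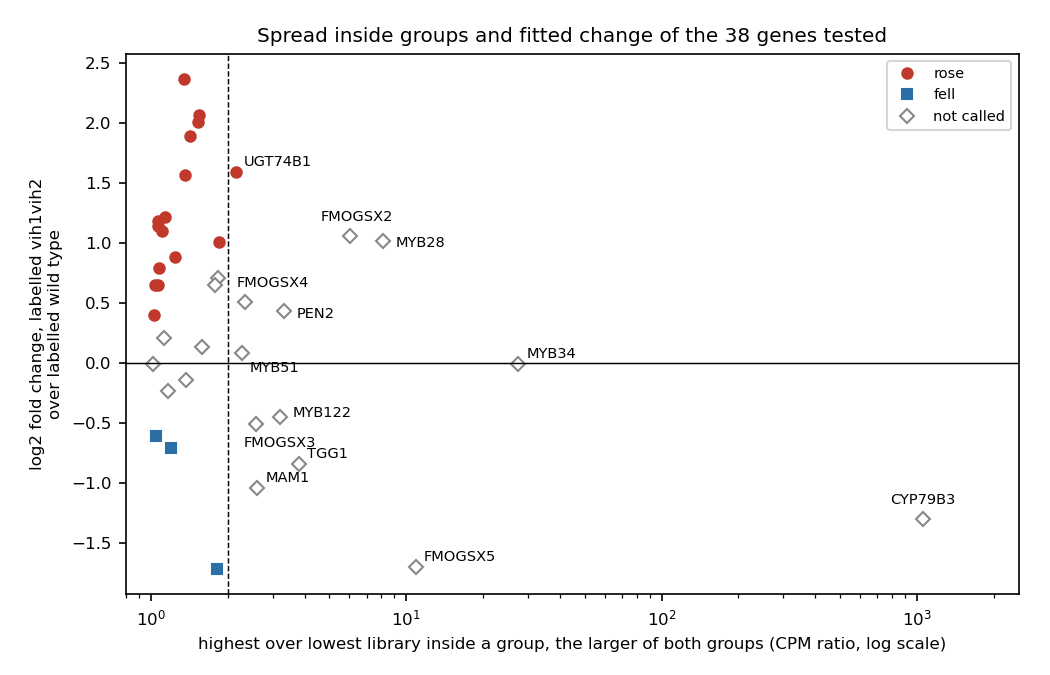
Spread inside groups on the x axis (highest over lowest library, the larger value of both groups, log scale) against the fitted log2 fold change on the y axis for the 38 tested genes. Red circles rose, blue squares fell, open diamonds were not called, and the dashed line marks a 2-fold spread. Of the 13 genes to the right of the line, 12 are open, and CYP79B3 lies farthest out with a spread of 1060-fold.

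Another 66 genes of the wider pathway were listed by function, of which 61 were tested. Among them 24 rose (39.3%) and 13 fell (21.3%), where 21.4% of all genes tested rose and 19.4% fell. The share that fell was thus near that of all genes. The called share was 60.7%, against the background of 40.9%, and the median log2 fold change was 0.38. Shares in brackets for the lists below stand beside the same 21.4% and 19.4%.

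Of 7 tested further regulators, 3 rose (42.9%) and none fell. SDI1, a repressor of aliphatic glucosinolate synthesis that sulfur shortage induces, had 21.7, 24.3 and 24.2 CPM in the libraries labelled vih1vih2, against 1.90, 1.89 and 1.49 CPM in those labelled wild type, a log2 fold change of 3.73 ± 0.14 (edgeR adjusted p = 3.71e-05). Its relative SDI2 rose by 1.04 ± 0.11, and MYC4, a bHLH partner of the MYBs, by 0.42 ± 0.07. The bHLH factor MYC3 (0.10 ± 0.05), the sulfur-limitation regulator SLIM1 (0.59 ± 0.70), the calmodulin-binding IQD1 (−0.80 ± 0.27) and the DOF factor OBP2 (−0.74 ± 1.38) were not called. IQD1 was called without vih1vih2 replicate 1, at −1.04 (edgeR adjusted p = 0.0376), and the DESeq2 Wald test called it on all libraries. SLIM1 was called with the replicate number as a block, at 0.69 (edgeR adjusted p = 0.0487). MYC2 was listed at 0 in 4 libraries, with 243 and 165 counts in vih1vih2 replicates 2 and 3, and was not tested.

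**Figure D5:**
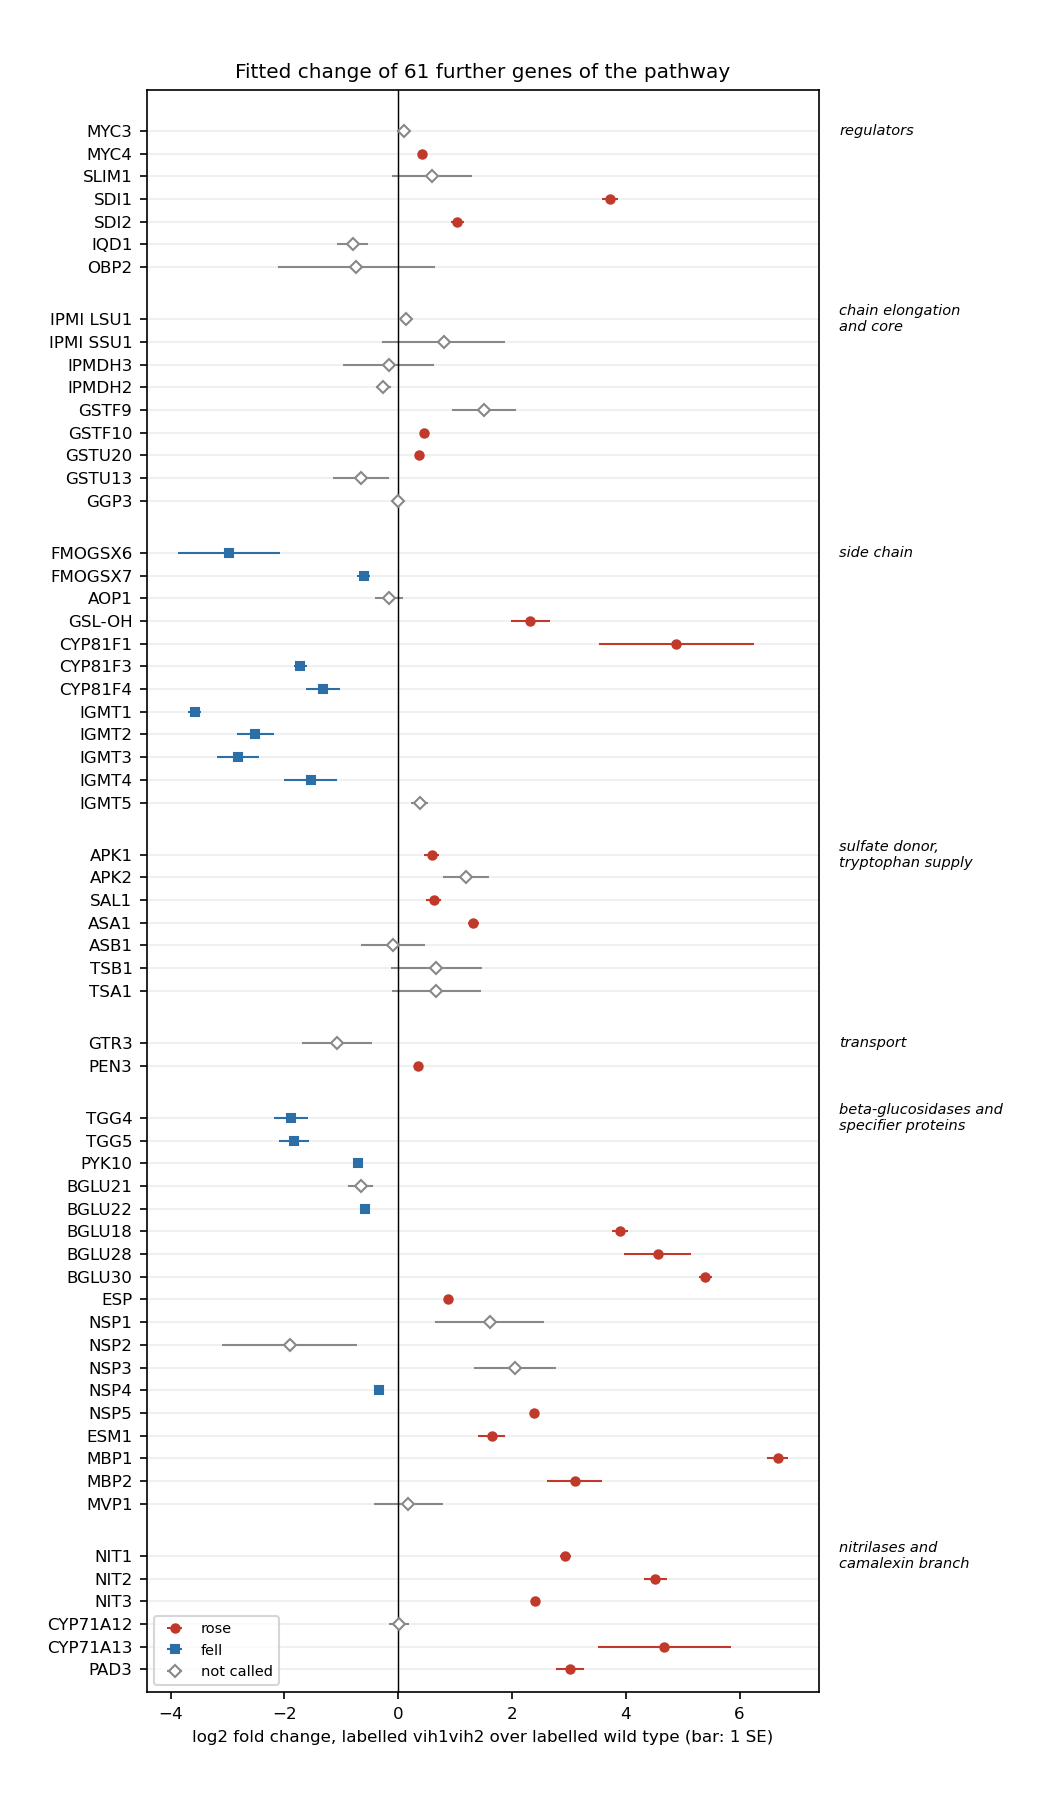
Fitted log2 fold change (labelled vih1vih2 over labelled wild type) of 61 further tested genes of the pathway by function, with bars of 1 standard error and symbols as for the 38 genes. The indole methyltransferases IGMT1 to IGMT4 lie between −3.58 and −1.54, while MBP1 lies at 6.67 and the nitrilases NIT1 to NIT3 between 2.41 and 4.52.

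Of 12 further side-chain genes tested, 2 rose (16.7%) and 8 fell (66.7%), and their median log2 fold change was −1.43. Among the 8 of them that act on the indole ring (CYP81F and IGMT genes) 1 rose and 6 fell, and among the 4 of aliphatic side chains 1 rose and 2 fell. The number that rose was 1 in each fit in which CYP81F1 lost its call. The number that fell was 5 without vih1vih2 replicate 3, wild type replicate 1 or wild type replicate 3. FMOGSX6, 1 of the aliphatic genes that fell, had 10, 0 and 6 counts in the libraries labelled vih1vih2. Its call was lost in 5 of the 6 fits that left out 1 library. IGMT1, which methylates the hydroxylated indole ring, had 9.03, 11.4 and 10.0 CPM in the libraries labelled vih1vih2, against 124, 119 and 120 CPM in those labelled wild type, a log2 fold change of −3.58 ± 0.11 (edgeR adjusted p = 1.87e-05). IGMT3 was at −2.81 ± 0.37 and IGMT2 at −2.51 ± 0.32, both called. IGMT4 was called at −1.54 ± 0.46, with 99.4, 31.8 and 38.6 CPM in the libraries labelled vih1vih2. The call of IGMT4 was lost in 5 of the 6 fits that left out 1 library (edgeR adjusted p up to 0.119). These methyltransferases lie close together and are alike, and whether the counting split reads between them was not tested.

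The P450 genes that act on the indole ring did not all move one way. CYP81F3 fell to 4.78, 3.72 and 4.57 CPM in the libraries labelled vih1vih2, against 14.5, 14.7 and 13.9 CPM in those labelled wild type (log2 fold change −1.72 ± 0.12). CYP81F4 had a log2 fold change of −1.32 ± 0.30, and its call was lost without vih1vih2 replicate 2 (−1.27, edgeR adjusted p = 0.061) or replicate 3 (−1.25, edgeR adjusted p = 0.0613), and without wild type replicate 1 (−1.16, edgeR adjusted p = 0.0513) or replicate 3 (−1.20, edgeR adjusted p = 0.0534). CYP81F1 had 274, 70 and 233 counts in the libraries labelled vih1vih2, against 0, 0 and 16 in those labelled wild type. Its fitted change of 4.89 ± 1.36 passed the test (edgeR adjusted p = 0.0357), but the adjusted p was 0.05 to 0.0921 in 5 of the 6 fits that left out 1 library, the exception being the fit without wild type replicate 3 (adjusted p = 0.0168). GSL-OH, which hydroxylates an alkenyl aliphatic glucosinolate, rose, with 2250, 1250 and 2280 CPM in the libraries labelled vih1vih2 and 294, 528 and 336 CPM in those labelled wild type.

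Among genes that supply sulfate donor and tryptophan, 3 of 7 rose (42.9%) and none fell (1 fell without vih1vih2 replicate 1). ASA1, an anthranilate synthase subunit of tryptophan synthesis, had 114, 118 and 128 CPM in the libraries labelled vih1vih2 and 51.1, 41.9 and 51.3 CPM in those labelled wild type, a log2 fold change of 1.32 ± 0.10 (edgeR adjusted p = 0.000402). APK1, a kinase that makes the sulfate donor, was at 0.59 ± 0.13, and its call was lost without vih1vih2 replicate 2 (0.55, edgeR adjusted p = 0.0529). SAL1, which removes the by-product of sulfation, was at 0.62 ± 0.14, and its call was lost without vih1vih2 replicate 1 (0.53, edgeR adjusted p = 0.0521). Of 9 further chain elongation and core genes tested, 2 rose (22.2%), a share near that of all genes. They were the glutathione transferases GSTF10 (0.45 ± 0.06) and GSTU20 (0.36 ± 0.04). Of 2 further transport genes tested, 1 rose (50%) and none fell. The exporter PEN3 rose, by 0.35 ± 0.08. The transporter GTR3 was not called, at −1.08 ± 0.62, but it was called without vih1vih2 replicate 1, at −1.96 (edgeR adjusted p = 0.0236).

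Of 18 beta-glucosidases, specifier proteins and associated proteins tested, 8 rose (44.4%) and 5 fell (27.8%), where 21.4% of all genes tested rose and 19.4% fell. MBP1, a myrosinase-binding protein, had 405, 413 and 415 CPM in the libraries labelled vih1vih2, against 4.25, 3.12 and 4.71 CPM in those labelled wild type, which is 102-fold (log2 fold change 6.67 ± 0.19, edgeR adjusted p = 1.65e-05). The beta-glucosidase BGLU30 had 194, 206 and 201 CPM in the libraries labelled vih1vih2 and 4.55, 4.28 and 5.39 CPM in those labelled wild type (5.40 ± 0.12). BGLU28 (4.56 ± 0.59) and BGLU18 (3.90 ± 0.14) rose as well.

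The specifier proteins, which steer the products of hydrolysis towards nitriles or epithionitriles, differed among themselves. ESP rose, with 35.1, 38.1 and 35.5 CPM in the libraries labelled vih1vih2 and 20.4, 19.8 and 19.4 CPM in those labelled wild type (0.87 ± 0.07). NSP5 rose too, at 1050, 1080 and 1050 CPM in the libraries labelled vih1vih2, against 207, 199 and 204 CPM in those labelled wild type (2.38 ± 0.03). NSP1 was not called, at 188, 186 and 879 CPM in the libraries labelled vih1vih2 and 190, 29.5 and 191 CPM in those labelled wild type, with 1 library of each group far from the rest. NSP4 fell, with 96.4, 91.4 and 97.7 CPM in the libraries labelled vih1vih2 and 122, 109 and 129 CPM in those labelled wild type (−0.34 ± 0.08, edgeR adjusted p = 0.0199). Its call was lost without vih1vih2 replicate 1 (−0.34, edgeR adjusted p = 0.0529) or replicate 2 (−0.31, edgeR adjusted p = 0.0617), or without wild type replicate 1 (−0.32, edgeR adjusted p = 0.0571). NSP2 (−1.91 ± 1.18) and NSP3 (2.06 ± 0.72) were not called, and NSP3 was called without vih1vih2 replicate 3, at 2.54 (edgeR adjusted p = 0.000391).

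The beta-glucosidases that fell included genes known from roots. PYK10, the main beta-glucosidase of root ER bodies, fell to 1260, 1300 and 1320 CPM in the libraries labelled vih1vih2, against 2160, 2110 and 2070 CPM in those labelled wild type (−0.71 ± 0.03, edgeR adjusted p = 4.86e-05). The root myrosinases TGG4 (−1.88 ± 0.30) and TGG5 (−1.83 ± 0.26) fell as well. The root marker list was also lower in sum. Of 15 tested, 1 rose (6.67%), 7 fell (46.7%) and 7 were not called, where 21.4% of all genes tested rose and 19.4% fell. The 1 that rose was WOX5 (0 rose without vih1vih2 replicate 2 or 3, or wild type replicate 1 or 3). None of the 15 was at 0 in 4 or more libraries. The summed level of the 15 was 106 to 116 CPM in the libraries labelled vih1vih2, against 158 to 166 CPM in those labelled wild type. The CASP genes of the Casparian strip, 4 of 5 of which fell, summed to 33.0 to 36.6 CPM in the libraries labelled vih1vih2, against 78.7 to 84.8 CPM in those labelled wild type. The other 10 markers, with 1 that rose and 3 that fell, summed to 72.9 to 79.0 CPM in the libraries labelled vih1vih2 and 77.5 to 85.5 CPM in those labelled wild type, which overlap. The part of root content in these values was not tested.

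Of the nitrilases and genes of the camalexin branch, 5 of 6 rose (83.3%), against 21.4% of all genes tested. Without vih1vih2 replicate 1, 2 or 3 or wild type replicate 3, 4 of 6 rose. NIT2, a nitrilase that turns nitriles into acids, had 1370, 1370 and 1740 CPM in the libraries labelled vih1vih2, against 50.6, 74.2 and 69.9 CPM in those labelled wild type, a log2 fold change of 4.52 ± 0.20 (edgeR adjusted p = 6.46e-05). NIT1 had 3160, 3090 and 3170 CPM in the libraries labelled vih1vih2 and 438, 352 and 435 CPM in those labelled wild type (2.94 ± 0.10), and NIT3 rose by 2.41 ± 0.07. The NIT genes are close paralogs that lie together, and whether reads were split between them was not tested. PAD3, the last enzyme of camalexin synthesis, rose by 3.02 ± 0.24. CYP71A13, which takes the indole oxime towards camalexin, had 110, 162 and 134 counts in the libraries labelled vih1vih2 and 0, 14 and 0 in those labelled wild type. Its call at 4.68 ± 1.17 was lost without vih1vih2 replicate 1 (4.83, edgeR adjusted p = 0.0566), replicate 2 (4.49, edgeR adjusted p = 0.0701) or replicate 3 (4.69, edgeR adjusted p = 0.0629), and without wild type replicate 3 (4.16, edgeR adjusted p = 0.0579).

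The myrosinases TGG1 and TGG2 are made in guard cells and myrosin cells, both specified by FAMA. FAMA had 31.6, 32.2 and 32.2 CPM in the libraries labelled vih1vih2, against 21.3, 25.7 and 12.8 CPM in those labelled wild type, apart but not called (0.68 ± 0.26, edgeR adjusted p = 0.0863). Of 7 guard-cell and myrosin-cell markers, 1 rose and 1 fell (14.3% each), where 21.4% of all genes tested rose and 19.4% fell. The number that rose was 3 without wild type replicate 3, and 2 without wild type replicate 2. None of the 7 was at 0 in 4 or more libraries. The sum of the 7 was 88.4 to 92.2 CPM in the libraries labelled vih1vih2, against 72.6 to 81.0 CPM in those labelled wild type. Without FAMA, a split made after the values were seen, the sums overlapped, at 56.2 to 60.5 CPM in the libraries labelled vih1vih2 and 55.3 to 59.7 CPM in those labelled wild type. Of the leaf photosynthesis markers, 7 of 7 tested fell, with a sum of 22600 to 22800 CPM in the libraries labelled vih1vih2, against 54200 to 55200 CPM in those labelled wild type, and 1 of the 8 listed was at 0 in 4 libraries. The part of these marker shifts in the glucosinolate values was not tested.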

How the data were processed

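Raw counts per gene were deposited by the authors for 6 directional RNA-seq libraries. CASAVA 1.4, STAR 2.5.3a and StringTie 1.3.3b, with build TAIR10, are named in the submitters' processing notes. Which of them counted is not given in the sources used here, nor are the strand setting and the annotation. The 280 rows with 6-digit identifiers were left out (0.748% to 1.1% of counts), which left 26800 identifiers and totals of 42697387 to 64410871, where 1 count is worth 0.0165 to 0.0245 CPM. Of these identifiers, 26505 matched RefSeq TAIR10.1, the source of positions, exonic lengths, promoters and transcripts. No 2 libraries of a group were copies (chi-square per degree of freedom 121 to 148).

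The libraries labelled vih1vih2 were set against those labelled wild type with edgeR 4.0.16 in R 4.3.3 (filterByExpr, TMM, quasi-likelihood F test, group as the only term), on all 22818 genes that passed the filter, with Benjamini-Hochberg adjustment at 0.05. The standard error is the log2 fold change over the square root of F. Alternatives used DESeq2 1.42.0 and limma 3.58.1. The fit was tested on simulated data. Identity between proteins was planned and not run. Shared stretches of 50 bases in spliced transcripts, matched on either strand, were counted in its place. Figures used matplotlib 3.10.9 in Python 3.11.15.

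The members and lists were chosen with earlier results of these data known. All members could be named; of each further list the rule took up to 4 called genes of largest change with a mean of at least 1 CPM, every further regulator, PYK10, ESP, NSP1 and FAMA. GSL-OH, FMOGSX6, CYP81F3, CYP81F4, IGMT4, GTR3, NSP2, NSP3, NSP4, NSP5, TGG4, TGG5 and NIT3 are outside this rule. So are the markers WOX5 and the CASP genes. All of them were picked with their values already seen.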

Additional observations from a re-analysis of the deposited data

How the results depend on the processing

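Over 15 alternative settings, 568 values of the tested glucosinolate genes were compared with those reported: 553 kept their side of the threshold, 4 lost the call, 11 gained it and 0 called values changed sign. Uncalled values had the other sign 8 times, in MYB34, MYB51 and SUR1. The 4 losses are all of CYP79B2 (each vih1vih2 library left out, and a threshold of 0.01). The number that rose was 15 to 17 and the number that fell 3 to 4 with 1 library left out, and their median log2 fold change was 0.49 to 0.62. For all genes, 4130 to 4377 rose and 3684 to 3775 fell with 1 library left out, and 3136 rose and 2623 fell at 0.01. With 1 library left out, the MYB regulators that rose numbered 0 to 1 and those that fell 1 to 2, chain elongation genes that fell 0 to 1, side-chain genes that rose 1 to 2 and that fell 1 to 2, aliphatic genes that fell 1 to 2, indole genes that rose 1 to 2 and that fell 1 to 2. With a filter of 5 CPM in 3 libraries, 0 MYB regulators and 0 aliphatic genes fell, because MYB76 was no longer tested. The DESeq2 Wald test and limma-voom each gave 1 chain elongation gene and 2 aliphatic genes that fell, MAM1 being the added one. At 0.01, 1 indole gene rose. Counting motifs before the start alone gave 2 G-box promoters. Over all genes tested, the replicate numbers did not pair the libraries: deviations of same-numbered libraries correlated at −0.025 to 0.031, and those of other pairs at −0.042 to 0.054. Single genes can differ from this. Replicate 2 was the lowest of both groups for MYB28 and the highest of both for SUR1, and pairing in single genes was not tested. With the replicate number as a block, 16 of these genes rose and 3 fell, with no call changed; of the 61 further genes, 5 lost and 2 gained a call. Leaving out genes with an uneven library, an alternative chosen after seeing the data, left 15 that rose and 3 that fell. Among the 61 further genes, 846 of 909 values kept their side of the threshold, 45 lost the call, 18 gained it and 0 called values changed sign. Depth limits the genes of few counts, such as MYB76, MYB122, CYP81F1 and CYP71A13.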
